A study of Homo sapiens with 16 samples.

Results

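The 10 genes described here were drawn from the AP-1 family, the EGR family and the immediate early response. Each was followed by name through a SLAM-seq experiment in the human monocytic leukaemia line THP-1. They were the Fos family members FOS, FOSB and FOSL2, the Jun family members JUN, JUNB and JUND, the zinc finger factor EGR1, the bZIP factor ATF3, and the induced genes IER2 and PPP1R15A. All 10 symbols were found among the 60564 genes of the deposited table, and all 10 passed the filter that left 16241 genes for testing. The filter asked for at least 1 CPM (reads scaled to a common library size) and for any library to have a rate other than 0. Both genotypes of the study were compared, wild-type control cells and cells with a knockdown of ALKBH5, an enzyme that removes the methyl mark m6A from RNA. Both had received 100 µM 4-thiouridine for 1 h and were then chased in medium with 10 mM uridine for 0, 1.5, 4.5 or 7.5 h before polyadenylated RNA was taken. Each of the 8 groups held 2 libraries, 16 in all, and nothing in the labels placed the replicates in separate cultures, so the p-values measure the spread between these libraries, which may be technical. The reagent used for the knockdown and the number of clones were not given in the sources used here.

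SLAM-seq marks new RNA with 4-thiouridine, which is read as T-to-C changes, and the table held 1 such conversion rate for each gene and library, given here in percent. The rate is a share of labelled bases, and it falls as new unlabelled RNA takes the place of labelled RNA. Decay and synthesis cannot be told apart by it, and it is not a level of expression. The number of bases behind each rate was not in the table, so its depth is unknown and no counting interval is given. No library without 4-thiouridine was used here, so the rate of mismatches in unlabelled RNA was not measured. Library medians over the tested genes ran from 0.250% to 1.19%, and between 2.39% and 12.9% of the tested genes were listed at 0 in a library. The columns of the knockdown were identified by elimination, since their prefix does not spell the genotype. ALKBH5 itself had rates between 0.0982% and 3.31% over the 16 libraries, and as the table held a single CPM column of unstated library, its level could not be compared between genotypes. In that column 9 of 10 monocytic markers, LYZ and SPI1 among them, had a CPM of at least 1, the exception being MPO at 0.185. The T cell markers had none of 4 at that level, and the erythroid and epithelial markers 1 of 4 each.

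Immediate early genes are transcribed within minutes of a stimulus from factors already present in the cell, and many of their transcripts are known for rapid decay. Fos and Jun proteins pair through leucine zippers to form AP-1, which binds the TGAGTCA element, while ATF family proteins favour TGACGTCA. EGR1 binds GC-rich elements and is itself driven through serum response elements by SRF and its partners. PPP1R15A, also called GADD34, directs protein phosphatase 1 to the translation factor eIF2, and IER2 is a small nuclear protein. In monocytic cells AP-1 and EGR1 are known for their part in macrophage differentiation and inflammatory gene expression.

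The promoters of EGR1, JUND, PPP1R15A and FOS are shown because they carry the elements through which this class of genes is known to be switched on. Each sequence is the 250 bases upstream of the RefSeq start in GRCh38.p14, read 5′ to 3′ on the strand of the gene. Capitals mark TGACGT, the core of the cyclic AMP response element, on either strand and, in EGR1, serum response elements.
EGR1 (chr5:138465229-138465478, plus strand): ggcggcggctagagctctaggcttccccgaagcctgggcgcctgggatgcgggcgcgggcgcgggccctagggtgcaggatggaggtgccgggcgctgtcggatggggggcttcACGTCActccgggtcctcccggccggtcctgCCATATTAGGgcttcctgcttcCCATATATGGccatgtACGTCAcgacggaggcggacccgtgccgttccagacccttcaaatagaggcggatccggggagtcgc
JUND (chr19:18281623-18281872, minus strand): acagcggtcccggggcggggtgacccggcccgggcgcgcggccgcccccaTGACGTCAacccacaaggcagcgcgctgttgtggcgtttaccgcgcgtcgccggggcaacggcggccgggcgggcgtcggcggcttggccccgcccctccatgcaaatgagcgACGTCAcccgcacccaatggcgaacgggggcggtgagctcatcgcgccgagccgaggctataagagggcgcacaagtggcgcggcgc
PPP1R15A (chr19:48872171-48872420, plus strand): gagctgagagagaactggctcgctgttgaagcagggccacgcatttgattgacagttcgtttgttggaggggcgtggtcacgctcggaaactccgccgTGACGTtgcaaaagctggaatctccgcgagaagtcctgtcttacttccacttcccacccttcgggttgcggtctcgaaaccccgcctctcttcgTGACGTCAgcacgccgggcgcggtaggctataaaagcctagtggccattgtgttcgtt
FOS (chr14:75278578-75278827, plus strand): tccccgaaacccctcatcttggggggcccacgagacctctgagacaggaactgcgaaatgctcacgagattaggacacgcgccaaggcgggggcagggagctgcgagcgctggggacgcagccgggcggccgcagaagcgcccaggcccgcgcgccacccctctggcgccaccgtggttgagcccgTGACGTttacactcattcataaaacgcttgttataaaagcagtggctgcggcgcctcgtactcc
TGACGT was found in windows of 6 of the 10 genes, FOS, FOSB, FOSL2, JUND, EGR1 and PPP1R15A, against 7.09% of 34788 distinct promoter windows of this length. The full element TGACGTCA reads the same on both strands, so it counts as 2 matches of TGACGT. Within these windows the serum response element, searched by its usual consensus on both strands, occurred in EGR1 alone, with 2 matches, and in 1.17% of all windows. Bases beyond the 250 were not searched, so elements further upstream in FOS or the other genes would have been missed. TATAAA stood in windows of 5 genes, FOS, FOSB, JUNB, ATF3 and PPP1R15A, against 10.8% of all windows. Neither the AP-1 element TGAGTCA, present in 4.21% of all windows, nor the EGR element GCGTGGGCG, present in 0.722%, was spelled out in a window of any of the 10. ATF3 had 2 windows for its 2 annotated starts, and the other genes 1 each. The RefSeq starts used for the windows are not always those of the GENCODE positions given below. By the latter, the windows of FOSL2 and JUN lay wholly inside the gene, and those of FOS and PPP1R15A ran past its start. For ATF3, 1 window ran past the start and the other lay wholly inside the gene.

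Sites in the 3′ untranslated region are shown because AU-rich elements in it are the classic mark of unstable immediate early transcripts. Capitals mark the nonamer TTATTTATT, on the transcript strand, with the bases around it.
FOS (position 646 of 806 bases): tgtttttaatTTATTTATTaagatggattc
FOSL2 (position 3917 of 4864 bases): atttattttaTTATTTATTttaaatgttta
With 1 principal GENCODE 29 transcript per gene, the nonamer was present in FOS and FOSL2 and in 8.19% of 12121 tested coding genes. Its pentamer core ATTTA was present in 9 of the 10 regions, IER2 being the exception, against 69.7% of the tested coding genes. FOSL2 held 9 pentamers, FOS 5 and EGR1 1, while PPP1R15A held 2 in a region of only 84 bases. GGACT, the letters most often linked with m6A, occurred in 9 of the 10 transcripts, all but EGR1, and in 91.6% of the tested coding genes.

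Over the chase the rates fell in most of the 10 genes in both genotypes. The fall was tested as a slope of log2(rate in percent + 0.05) per hour with limma, with Benjamini-Hochberg adjustment over all 16241 genes and a threshold of 0.05. A gene is said to have fallen or risen only where it passed this test, and differences on this scale understate changes of low rates. In the control 8 of the 10 fell, FOSB and ATF3 missing the threshold, where 34.4% of all tested genes fell. In the knockdown 9 of the 10 fell, ATF3 missing it, where 37.9% of all tested genes fell. In the raw rates both 0 h libraries lay above both 7.5 h libraries for all 10 genes in the control, which held for 49.8% of tested genes, and for all 10 in the knockdown, which held for 57.5%.

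**Figure D1:**
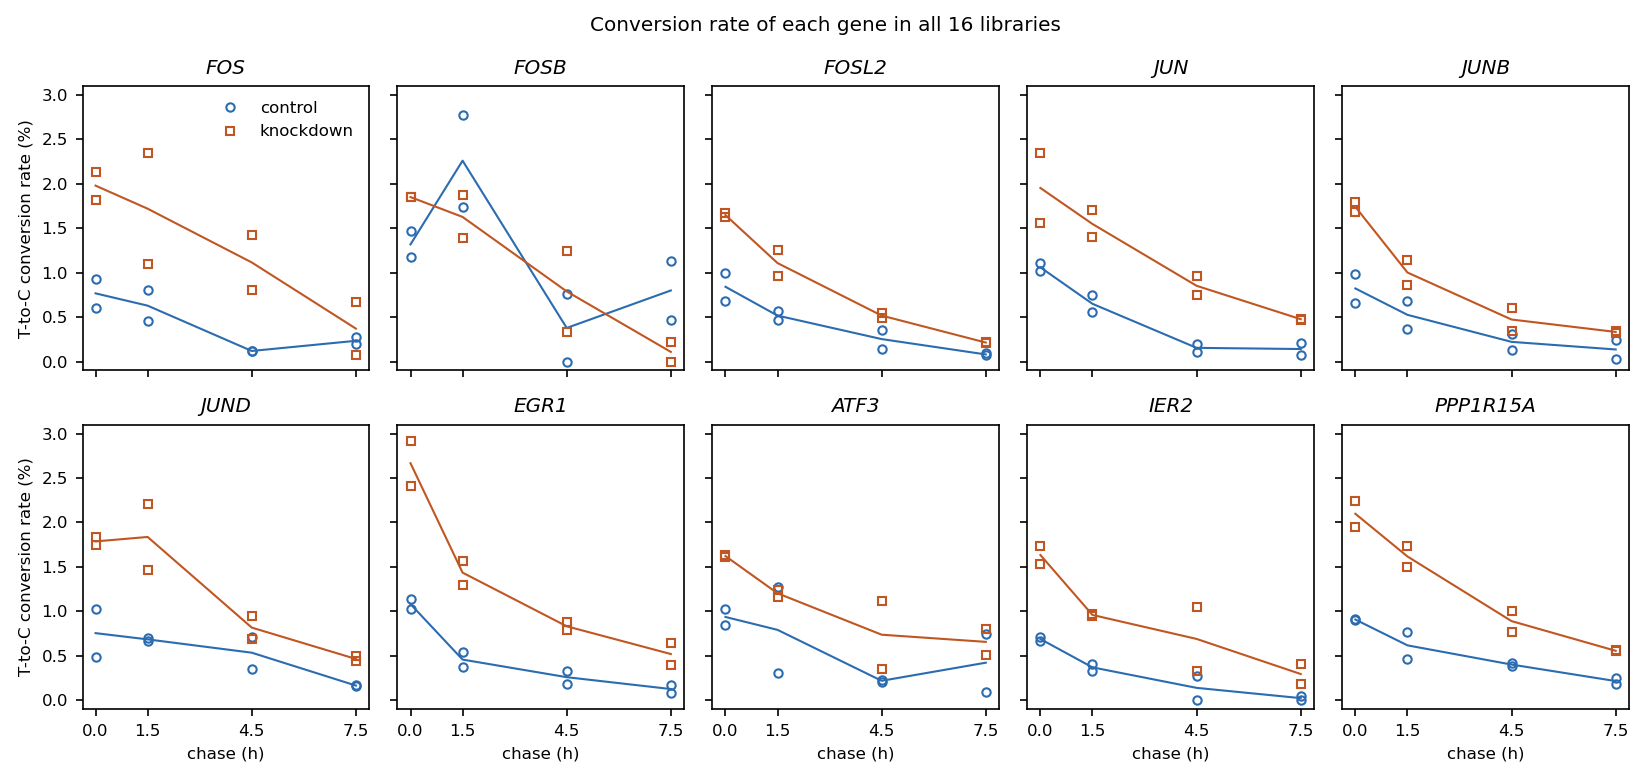
Conversion rate in percent (y axis) against hours of chase (x axis) for each of the 10 genes, with circles for control and squares for knockdown libraries and lines through the group means of 2 libraries. EGR1 in the knockdown starts highest, at 2.41% and 2.92%, and FOSB and IER2 are the genes with libraries listed at 0.

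FOS, the founding Fos protein and the usual partner of JUN, lies at chr14:75278774-75282230. With replicate 1 given before replicate 2, its control rates were 0.604% and 0.930% at 0 h, 0.454% and 0.803% after 1.5 h, 0.116% and 0.121% after 4.5 h, and 0.273% and 0.193% after 7.5 h. Its knockdown rates were 1.82% and 2.14%, 1.09% and 2.35%, 1.43% and 0.803%, and 0.669% and 0.0711% at the same times. The control libraries were lowest after 4.5 h and not after 7.5 h, and the knockdown replicates after 7.5 h differed from each other on the log2 scale more than any other FOS pair. FOS fell by 0.25 log2 per hour in the control (SE 0.0917, limma adjusted p = 0.0426). That call was lost without any 1 of 9 libraries: both control libraries at 0, 1.5 and 4.5 h, replicate 2 of the control after 7.5 h, and replicate 2 of the knockdown at 0 and 4.5 h. The adjusted p then lay between 0.0511 and 0.130. In the knockdown FOS fell by 0.36 log2 per hour (SE 0.0917, limma adjusted p = 0.00509), and without replicate 2 at 7.5 h the slope was -0.20 with an adjusted p of 0.0769.

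FOSB, a close relative of FOS, lies at chr19:45467995-45475179. Control libraries of FOSB read 1.17% and 1.46% at 0 h, 1.74% and 2.78% after 1.5 h, 0% (listed at 0) and 0.755% after 4.5 h, and 1.14% and 0.462% after 7.5 h. In the knockdown they were 1.85% in both 0 h libraries, 1.39% and 1.87% after 1.5 h, 0.337% and 1.24% after 4.5 h, and 0.216% and 0% (listed at 0) after 7.5 h. It was the only one of the 10 whose control rates were higher after 1.5 h than at 0 h in both libraries, and whose knockdown libraries at 7.5 h both lay below the control ones. The knockdown slope was -0.54 log2 per hour (SE 0.158, limma adjusted p = 0.0117), and -0.38 with an adjusted p of 0.114 without replicate 2 of the knockdown at 7.5 h, the library listed at 0. The control slope was -0.23 (SE 0.158, limma adjusted p = 0.268).

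FOSL2, or FRA-2, a Fos protein without the strong activation domain of FOS, lies at chr2:28392448-28417312. The control rates of FOSL2 were 0.680% and 1.00% at 0 h, 0.563% and 0.471% after 1.5 h, 0.358% and 0.146% after 4.5 h, and 0.0684% and 0.0907% after 7.5 h. Those of the knockdown, with the times in the same order here and for the genes that follow, were 1.67% and 1.63%, 1.25% and 0.963%, 0.488% and 0.545%, and 0.219% and 0.208%. No 2 successive times overlapped in either genotype. The slopes were -0.36 log2 per hour in the control (SE 0.0432, limma adjusted p = 1.1e-05) and -0.36 in the knockdown (SE 0.0432, limma adjusted p = 1.0e-05).

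JUN, the c-Jun subunit of AP-1, lies on the minus strand at chr1:58780788-58784327. The 8 control libraries gave JUN 1.01% and 1.10% at 0 h, 0.744% and 0.554% after 1.5 h, 0.199% and 0.109% after 4.5 h, and 0.0757% and 0.205% after 7.5 h. The knockdown libraries gave 1.56% and 2.34%, 1.40% and 1.70%, 0.960% and 0.743%, and 0.472% and 0.480%. The control rates at 4.5 and 7.5 h overlapped, while in the knockdown every 7.5 h library lay below every 4.5 h library. JUN fell by 0.37 log2 per hour in the control (SE 0.0587, limma adjusted p = 1.3e-04) and by 0.26 in the knockdown (SE 0.0587, limma adjusted p = 0.00225).

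JUNB, a Jun protein that often restrains JUN, lies at chr19:12791496-12793315. For JUNB the control rates were 0.663% and 0.982% at 0 h, 0.365% and 0.686% after 1.5 h, 0.128% and 0.314% after 4.5 h, and 0.245% and 0.0256% after 7.5 h. Knockdown rates of JUNB were 1.79% and 1.69%, 1.14% and 0.859%, 0.603% and 0.342%, and 0.339% and 0.326%. The control replicates at 7.5 h were the most unequal pair of this gene on the log2 scale, and the knockdown replicates at 7.5 h were close. JUNB fell by 0.34 log2 per hour in the control (SE 0.067, limma adjusted p = 9.5e-04) and by 0.29 in the knockdown (SE 0.067, limma adjusted p = 0.00223).

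JUND, the Jun family member known for steady expression in resting cells, lies on the minus strand at chr19:18279760-18281622. Rates of JUND in the control were 0.484% and 1.02% at 0 h, 0.697% and 0.672% after 1.5 h, 0.354% and 0.716% after 4.5 h, and 0.166% and 0.163% after 7.5 h. In the knockdown JUND had 1.83% and 1.74%, 1.46% and 2.21%, 0.950% and 0.684%, and 0.437% and 0.492%. The control groups overlapped from 0 to 4.5 h and only the 7.5 h pair lay below all others. JUND fell by 0.24 log2 per hour in the control (SE 0.0541, limma adjusted p = 0.00248) and by 0.27 in the knockdown (SE 0.0541, limma adjusted p = 9.3e-04).

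EGR1, a factor induced by growth and differentiation signals, lies at chr5:138465490-138469315. EGR1 had control rates of 1.02% and 1.14% at 0 h, 0.538% and 0.376% after 1.5 h, 0.331% and 0.187% after 4.5 h, and 0.0836% and 0.167% after 7.5 h. The knockdown rates of EGR1 were 2.41% and 2.92%, 1.30% and 1.57%, 0.874% and 0.789%, and 0.646% and 0.393%. No 2 successive times overlapped in either genotype, and the knockdown rates at 0 h were the highest of the 10 genes at that time. At 1.5 h the mean was 42.3% of its 0 h value in the control, the lowest share of the 10 genes, and 53.8% in the knockdown. EGR1 fell by 0.34 log2 per hour in the control (SE 0.0466, limma adjusted p = 4.3e-05) and by 0.29 in the knockdown (SE 0.0466, limma adjusted p = 1.3e-04).

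ATF3, a stress-induced factor that represses many inflammatory genes, spans chr1:212565334-212620777. The control libraries gave ATF3 0.846% and 1.03% at 0 h, 1.27% and 0.311% after 1.5 h, 0.205% and 0.232% after 4.5 h, and 0.0962% and 0.748% after 7.5 h. For ATF3 in the knockdown they were 1.61% and 1.63%, 1.24% and 1.17%, 1.12% and 0.355%, and 0.509% and 0.804%. Replicates disagreed in the control at 1.5 and 7.5 h and in the knockdown at 4.5 h. The CPM of ATF3 stood for 1365 reads, the most of the 10 genes. The library of that column and the bases behind each rate are unknown. The control slope was -0.22 log2 per hour (SE 0.0873, limma adjusted p = 0.0537) and the knockdown slope -0.18 (SE 0.0873, limma adjusted p = 0.114). Without replicate 2 of the control at 7.5 h, the high library, the control slope was -0.39 with an adjusted p of 0.0012 and the knockdown slope had an adjusted p of 0.0323. The control slope also passed without replicate 2 of the control at 1.5 h (adjusted p = 0.0336) and without replicate 2 of the knockdown at 4.5 h (adjusted p = 0.0431).

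IER2, a nuclear protein of the early response, lies at chr19:13150415-13154908. IER2 had rates in the control of 0.713% and 0.663% at 0 h, 0.332% and 0.407% after 1.5 h, 0% (listed at 0) and 0.278% after 4.5 h, and 0% (listed at 0) and 0.0465% after 7.5 h. Knockdown libraries of IER2 read 1.73% and 1.54%, 0.974% and 0.944%, 0.326% and 1.05%, and 0.406% and 0.183%. Up to 1.5 h the replicates were close in both genotypes, and from 4.5 h on they were not. The control slope was -0.46 log2 per hour (SE 0.0829, limma adjusted p = 4.0e-04), the steepest of the 10 in the control, though its size rests on the value added before taking logs: it was -0.26 with 0.2 and -0.59 with 0.02 in place of 0.05. In the knockdown IER2 fell by 0.30 (SE 0.0829, limma adjusted p = 0.00833), and without replicate 2 at 7.5 h the adjusted p was 0.0626.

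PPP1R15A, which restores translation after stress, lies at chr19:48872392-48876057. PPP1R15A had control rates of 0.902% and 0.913% at 0 h, 0.468% and 0.766% after 1.5 h, 0.421% and 0.381% after 4.5 h, and 0.181% and 0.249% after 7.5 h. In the knockdown it had rates of 2.24% and 1.95%, 1.50% and 1.74%, 0.772% and 1.01%, and 0.548% and 0.563%. Every group lay below the one before it in both genotypes with no overlap. PPP1R15A fell by 0.24 log2 per hour in the control (SE 0.0322, limma adjusted p = 3.8e-05) and by 0.25 in the knockdown (SE 0.0322, limma adjusted p = 2.0e-05). Its standard error was the smallest of the 10 genes.

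Compared with all tested genes, these genes started high and ended low. In the control the median of the 10 group means, in which libraries listed at 0 count as 0, was 0.874% at 0 h against 0.580% for all tested genes, 0.623% against 0.495% at 1.5 h, 0.237% against 0.334% at 4.5 h, and 0.152% against 0.266% at 7.5 h. In the knockdown it was 1.82% against 1.22%, 1.49% against 1.12%, 0.803% against 0.753%, and 0.417% against 0.552%. All 10 genes lay above the median of all tested genes at 0 h in both genotypes. By 7.5 h only FOSB and ATF3 did so in the control, and only ATF3 and PPP1R15A in the knockdown. As a share of its own 0 h mean, the median gene of the 10 kept 19.1% at 7.5 h in the control and 19.3% in the knockdown, where the median over all tested genes was 53.8% and 50.6%.

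**Figure D2:**
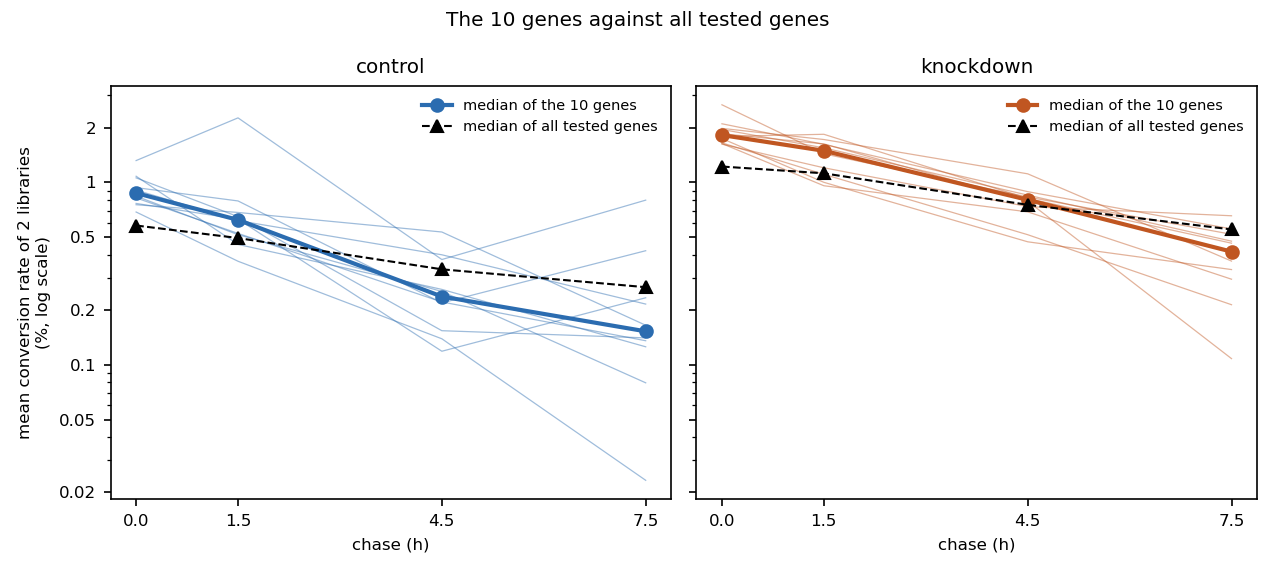
Mean conversion rate of 2 libraries in percent on a log axis (y axis) against hours of chase (x axis) in control (left) and knockdown (right), with thin lines for the 10 genes, a thick line for their median and a dashed line for the median of the 16241 tested genes. The median of the 10 genes crosses from above to below the dashed line between 1.5 and 4.5 h in the control and between 4.5 and 7.5 h in the knockdown.

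The median slope of all tested genes was negative in both genotypes, so each library was also centred on its own median log2 rate. Centring removed a common slope of -0.14 log2 per hour in the control and -0.15 in the knockdown. After centring, 6 of the 10 genes still fell in the control, FOSL2, JUN, JUNB, EGR1, IER2 and PPP1R15A, where 9.46% of all tested genes did and 17.6% rose. The centred control slopes of the 6 were -0.33 for IER2, -0.24 for JUN, -0.23 for FOSL2, -0.20 for EGR1 and JUNB and -0.10 for PPP1R15A. The adjusted p of JUNB was 0.0348, and it lay between 0.0598 and 0.273 without any 1 of the control libraries at 0 h, replicate 2 at 1.5 h or replicate 2 at 7.5 h. Its slope was -0.11 without replicate 2 of the control at 7.5 h and -0.31 without replicate 1, and -0.12 with 0.2 added in place of 0.05, where it missed the threshold (limma adjusted p = 0.0554). The adjusted p of PPP1R15A was 0.0307, and it lay between 0.0547 and 0.146 without any 1 of the control libraries at 0 h, replicate 2 at 1.5 h or replicate 1 at 7.5 h. Without replicate 2 of the control at 7.5 h ATF3 passed as well, at -0.24. In the knockdown 3 of the 10 fell after centring, FOSL2 at -0.21, EGR1 at -0.14 and PPP1R15A at -0.10, where 8.62% of all tested genes did and 17.7% rose. FOSL2 kept that call without each library in turn. EGR1 and PPP1R15A lost it without either 0 h knockdown library, replicate 2 at 1.5 h, replicate 1 at 4.5 h or replicate 2 at 7.5 h, EGR1 also without replicate 2 at 4.5 h and PPP1R15A also without replicate 1 at 7.5 h. Their adjusted p then lay between 0.0504 and 0.166.

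**Figure D3:**
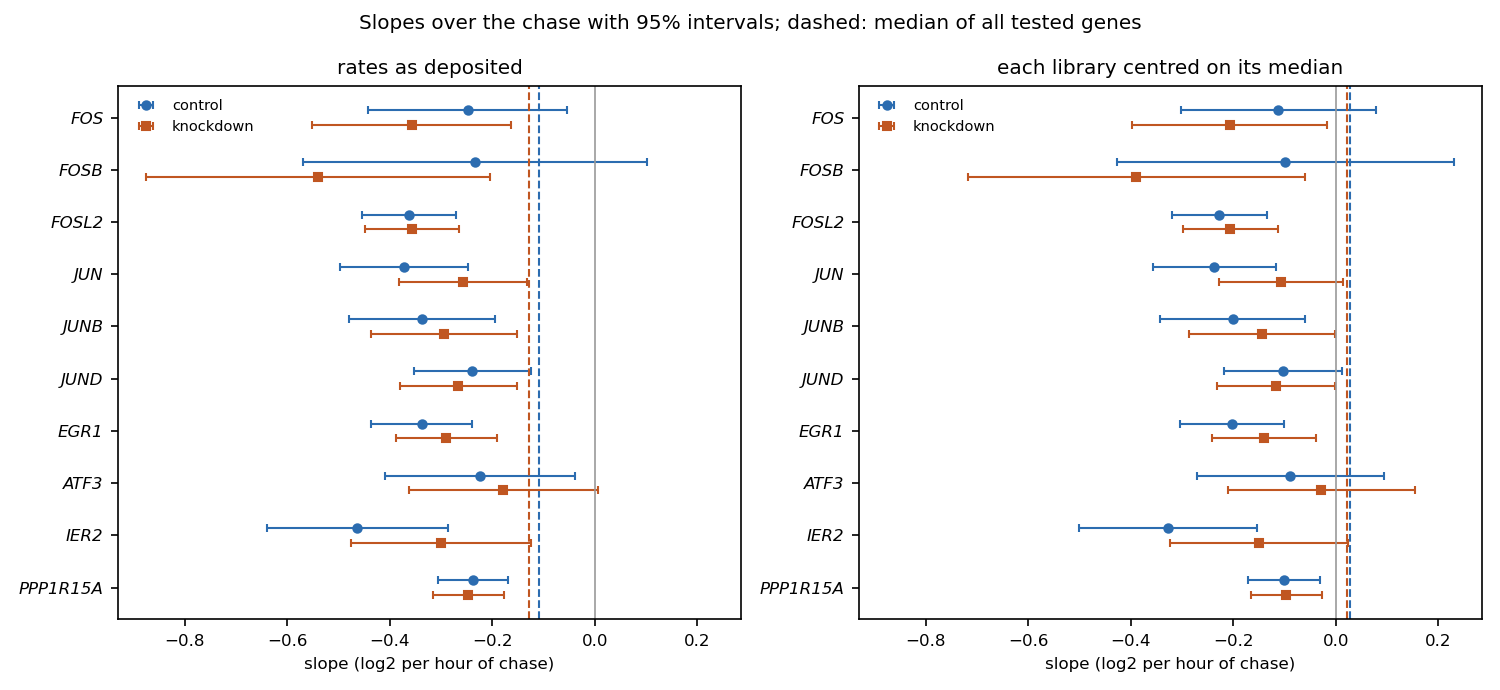
Fitted slope in log2 per hour of chase (x axis) for each gene (y axis) with 95% intervals, circles for control and squares for knockdown, from the rates as deposited (left) and after centring each library on its median (right). Dashed lines mark the median slope of all tested genes, -0.11 in the control and -0.13 in the knockdown as deposited, and every slope on the left lies below them.

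Between neighbouring times the 2 libraries a group held gave few calls. JUN fell by 1.80 log2 between 1.5 and 4.5 h in the control (limma adjusted p = 0.0409), the only call among the 10 genes in the 6 intervals, where 5.05% of all tested genes fell in that interval. Falls were called for 0.0554% of tested genes in the first control interval and 1.63% in the last, and for 0.00616%, 4.64% and 1.87% in the 3 knockdown intervals. It was lost without any 1 of 14 of the 16 libraries, all but the control libraries at 7.5 h, with adjusted p between 0.0509 and 0.190. After centring the change was -1.29 log2 with an adjusted p of 0.150.

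The rates of 9 of the 10 genes were higher in the knockdown over the 4 times, the genotype effect, where 69.6% of all tested genes were higher. FOSB was the exception, at -0.22 log2 (SE 0.665, limma adjusted p = 0.773). IER2 was higher by 1.76 log2 (SE 0.366), EGR1 by 1.52 (SE 0.166), JUN by 1.44 (SE 0.242) and FOS by 1.37 (SE 0.389). PPP1R15A followed at 1.19 (SE 0.131), JUND at 1.12 (SE 0.21), JUNB at 1.08 (SE 0.272), and FOSL2 and ATF3 at 1.00 (SE 0.179 and 0.336). The largest limma adjusted p among the 9 was 0.0157, for ATF3. The intervals of neighbours in this order overlapped, and with 0.2 added in place of 0.05 the effect of IER2 was 1.15. The median of the 10 was 1.16 log2 against 1.02 for all tested genes. Once each library was centred, which removed a common shift of 1.05 log2, none of the 10 differed in limma's test, where 1.45% of tested genes were higher and 4.59% lower. EGR1, at 0.47 log2 with an adjusted p of 0.125, was the 1 gene of the 10 with an unadjusted p under 0.05, beside 19.7% of all tested genes. The direction of FOSL2 and ATF3 turned to -0.05 with centring.

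**Figure D4:**
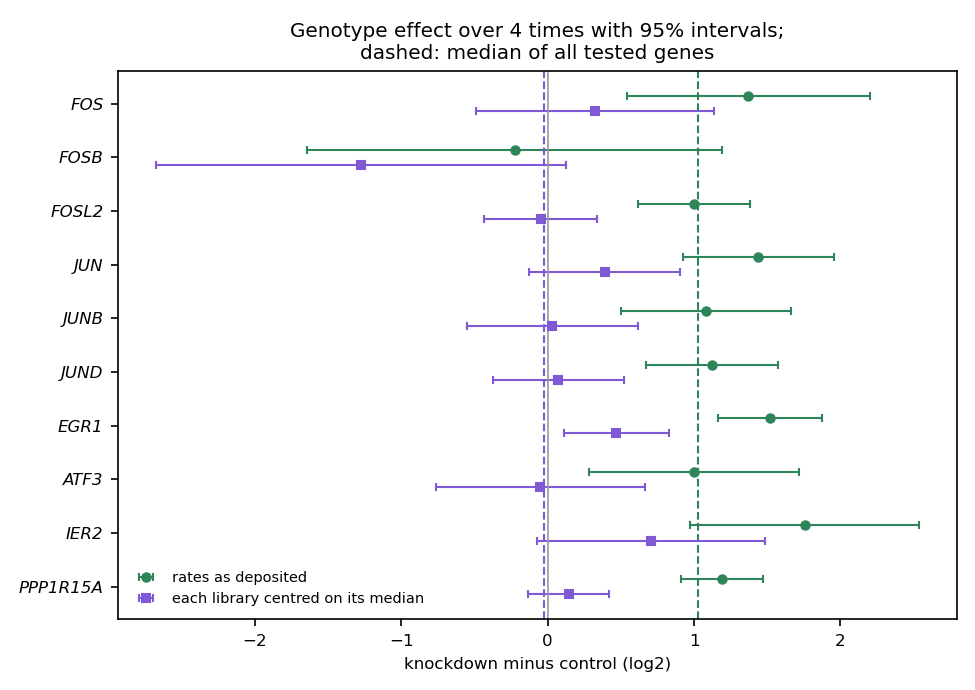
Difference between knockdown and control in log2 over the 4 times (x axis) for each gene (y axis) with 95% intervals, circles for the rates as deposited and squares after centring each library on its median. The dashed lines mark the median of all tested genes, 1.02 as deposited and -0.02 after centring, and the interval of FOSB spans 0 as deposited.

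Read time by time, both knockdown libraries lay above both control libraries for all 10 genes at 0 h, where this held for 71.1% of tested genes. It held for 8 genes at 1.5 h (all tested genes 74.3%), 8 at 4.5 h (68.2%) and 7 at 7.5 h (58.9%). FOSB was the only one of the 10 with both knockdown libraries below both control libraries, at 7.5 h, an order seen in 3.25% of tested genes. In limma's test at single times EGR1 and PPP1R15A were higher in the knockdown at every time, EGR1 by 1.26, 1.56, 1.55 and 1.70 log2 and PPP1R15A by 1.16, 1.35, 1.05 and 1.20. JUND was higher at 0 h (1.28), 1.5 h (1.33) and 7.5 h (1.26), JUN at 4.5 h (2.17) and 7.5 h (1.56), IER2 at the same 2 times (2.33 and 2.23) and FOS at 4.5 h (2.74). With 0.2 added in place of 0.05, IER2 was 1.39 higher at 4.5 h and 1.12 at 7.5 h, where it no longer passed (limma adjusted p = 0.0753). That made 3 of the 10 genes at 0 h, where 35.6% of tested genes were higher, 3 at 1.5 h (38.9%), 5 at 4.5 h (38.3%) and 5 at 7.5 h (33.5%). After centring, limma called none of the 10 at any time, where it called 0.0493% of tested genes higher and 0.499% lower at 0 h. The same shares were 0.0369% and 0.474% after 1.5 h, 0.0862% and 0.64% after 4.5 h, and 0.4% and 0.702% after 7.5 h. At an unadjusted p under 0.05 there were 0, 0, 2 (FOS and JUN) and 1 (FOSB) of them at the 4 times, beside 9.45%, 8.0%, 11.1% and 15.8% of all tested genes.

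These single-time calls rest on 2 libraries against 2 and several were lost without 1 of them. At 0 h EGR1 lost its call without any 1 of the 4 libraries, with adjusted p between 0.0521 and 0.101. JUND lost its own without replicate 1 of the control, replicate 1 of the knockdown or replicate 2 of the knockdown, with adjusted p between 0.118 and 0.263, and PPP1R15A without replicate 1 of the knockdown, at 0.0591. At 1.5 h JUND was lost without any 1 of the 4, at 0.0517 to 0.173. At 4.5 h FOS was lost without replicate 1 of the knockdown (0.0657), PPP1R15A without replicate 2 of either genotype (0.0534 and 0.0908), and IER2 without replicate 1 of the control (0.290) or replicate 2 of the knockdown (0.215). IER2 was 0.98 log2 higher at 4.5 h without replicate 1 of the control, which is listed at 0, and 3.69 without replicate 2. At 7.5 h JUN was lost without replicate 1 of the control or either knockdown library (0.0708 to 0.127), while JUND and IER2 were each lost without any 1 of 12 libraries, with adjusted p from 0.0507 to 0.141 and from 0.0528 to 0.204. For JUND the 12 were all but the control libraries at 0 and 4.5 h, and for IER2 all but those of both genotypes at 4.5 h. EGR1 kept its calls at 1.5, 4.5 and 7.5 h without each library in turn. So did PPP1R15A at 1.5 and 7.5 h and JUN at 4.5 h.

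Whether the fall itself differed between genotypes was tested as the difference of the slopes, knockdown minus control. None of the 10 genes, and none of the 16241 tested, passed in limma's test. At an unadjusted p under 0.05 there were 0 of the 10 and 7.81% of all tested genes. The largest differences were -0.31 log2 per hour for FOSB (95% interval -0.78 to 0.17), 0.16 for IER2 (-0.08 to 0.41), 0.12 for JUN (-0.06 to 0.29) and -0.11 for FOS (-0.38 to 0.17). For PPP1R15A the difference was -0.01 (-0.11 to 0.09), for FOSL2 0.01 (-0.12 to 0.14) and for EGR1 0.05 (-0.09 to 0.19). JUND stood at -0.03 (-0.19 to 0.13), JUNB at 0.04 (-0.16 to 0.24) and ATF3 at 0.05 (-0.22 to 0.31). The intervals of PPP1R15A, FOSL2 and EGR1 were the narrowest, and that of FOSB spanned nearly a full log2 unit per hour.

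The genes differed in how well the replicates matched. The residual SD of the log2 rates was lowest for PPP1R15A at 0.22 and highest for FOSB at 1.30, against a median of 0.50 over all tested genes. The widest gaps between 2 replicates were 4.01 log2 for FOSB in the control at 4.5 h, 2.71 for IER2 in the same group, 2.57 for FOS in the knockdown at 7.5 h and 2.45 for ATF3 in the control at 7.5 h. In the single CPM column ATF3 stood at 36.1, PPP1R15A at 17.8, EGR1 at 15.4 and FOS at 14.2, above the median of 9.66 over tested genes. JUNB stood at 8.97, IER2 at 8.81, FOSL2 at 7.96, JUND at 7.91, JUN at 5.61 and FOSB at 4.76, which are not scaled for length and give no order of abundance between genes.

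FOSB and JUNB lie wholly inside a gene on the opposite strand, and as the strand used in counting was not given in the sources used here, reads of the partners cannot be told apart. FOSB lies within ERCC1, a DNA repair gene with a CPM of 151, over all of its 7185 bases. The rates of ERCC1 stayed between 0.635% and 1.26% in the 16 libraries, and its slopes were 0.04 log2 per hour in the control (limma adjusted p = 0.273) and -0.01 in the knockdown (limma adjusted p = 0.833). The genotype effect of ERCC1 was 0.18 log2 (limma adjusted p = 0.187). Its part in the values of FOSB was not tested. JUNB lies within HOOK2, whose rates ran from 0.0546% to 0.383% and whose CPM was 61.9, over all of its 1820 bases. HOOK2 was higher in the knockdown by 0.83 log2 (limma adjusted p = 1.9e-04), with slopes of -0.06 in the control and -0.09 in the knockdown that did not pass. Parts of FOSL2 and IER2 overlap other annotated transcripts, the highest of them with a CPM of 1.30.

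Related genes were counted by list, with up to 4 named by the smallest p of the control slope. Of 12 other AP-1 and bZIP genes 9 fell in the control and 7 in the knockdown, beside 34.4% and 37.9% of all tested genes here and for the lists that follow. ATF2, a partner of JUN, fell by 0.36 log2 per hour in the control, MAFG by 0.31 and FOSL1, the remaining Fos protein, by 0.27. Of 5 other EGR and NAB genes 3 were tested, of which 2 fell in the control and 3 in the knockdown. The corepressors of EGR proteins, NAB1 and NAB2, fell by 0.28 and 0.25 in the control, and EGR2 by 0.60 in the knockdown, with a control slope of -0.13 (limma adjusted p = 0.513). Of 10 other immediate early genes 7 were tested, of which 4 fell in the control and 5 in the knockdown. The orphan nuclear receptor NR4A1 fell by 0.48 and NR4A2 by 0.21 in the control, the survival factor MCL1 by 0.26 and IER5 by 0.24.

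Among 16 upstream genes, serum response factors and kinases of the MAP kinase cascades, 10 fell in the control and 11 in the knockdown. CREB1, which binds the cyclic AMP response element, fell by 0.30 log2 per hour in the control, MAPK14, or p38, by 0.26, the SRF coactivator MRTFA by 0.18 and the JUN kinase MAPK8 by 0.19. Of 10 genes of eIF2 phosphorylation 5 fell in each genotype. DDIT3, the stress factor CHOP, fell by 0.27 in the control, PPP1R15B, the constitutive counterpart of PPP1R15A, by 0.27, and the eIF2 kinases EIF2AK3 and EIF2AK2 by 0.35 and 0.13. The median control slope was -0.25 for the AP-1 and bZIP genes, -0.25 for the EGR and NAB genes, -0.24 for the other immediate early genes, -0.18 for the upstream genes and -0.11 for the eIF2 genes, beside -0.29 for the 10 genes and -0.11 for all tested genes. After centring, the numbers that fell in the control and in the knockdown were 4 and 1 of the 12 AP-1 and bZIP genes, 0 and 2 of the 3 EGR and NAB genes, 1 and 2 of the 7 other immediate early genes, 3 and 2 of the 16 upstream genes and 1 and 1 of the 10 eIF2 genes, beside 9.46% and 8.62% of all tested genes. Of the eIF2 genes 3 and 4 then rose, and of the upstream genes 1 rose in the control, beside 17.6% and 17.7% of all tested genes. Higher rates in the knockdown were called for 9 of 12, 1 of 3, 4 of 7, 13 of 16 and 10 of 10 of these lists, in the same order, beside 69.6% of all tested genes. After centring, 2 genes of the 5 lists differed between genotypes, both lower in the knockdown, NR4A2 at -0.67 log2 (limma adjusted p = 0.0429) and the kinase SGK1 at -1.29 (limma adjusted p = 0.00654), the latter named after its value was seen.

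As a description of pattern, the mean centred profile of the 10 genes over the 16 libraries was set against 8122 other genes with a CPM at or above the median. The 5 most similar by Pearson's r were the amino acid transporter SLC38A2 (r = 0.970), SBNO1 (0.962), the chondroitin synthase CHSY1 (0.959), PRDM2 (0.952) and the transcription factor SP3 (0.952). SLC38A2 went from 1.04% at 0 h to 0.152% at 7.5 h in the control and from 2.44% to 0.393% in the knockdown, with slopes of -0.34 log2 per hour in both. Within the 10, r between a gene and the mean of the other 9 ran from 0.195 for ATF3 and 0.362 for FOSB to 0.734 for JUN. All these values share the same 16 libraries, and no test was made of them.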

How the data were processed

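THP-1 libraries of control and ALKBH5 knockdown cells were analysed from 1 deposited table. It held a fraction from 0 to 1 per gene and library, which the authors deposited without naming it. Its range and the assay fit a T-to-C conversion rate, which is how it was taken, in percent. A single CPM column was also deposited by the authors. Its low values were whole multiples of 1 read within 0.1 of a read, for 37800100 reads in all after rounding, but its library is not stated, so no count test could be made. It served only for the filter and the variance trend. The hg38 build, HISAT2 2.1.0 and CASAVA are named, per the submitters' processing notes. The annotation, the conversion caller and any masking of variants were not given in the sources used here.

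Rates were tested as log2(rate in percent + 0.05) with limma 3.58.1 in R 4.3.3, with the variance trend on log2(CPM + 0.01). All 16 libraries entered each fit, which shared 1 estimate of the spread. Designs were genotype with chase time as a factor, 1 slope per genotype, and 8 group means, without a replicate block. Scripts were tested on simulated data. Alternatives were pseudocounts of 0.02 and 0.2, a CPM minimum of 5 or none, no variance trend, a replicate block, centring and leaving out each library. The 10 genes and all lists were chosen with earlier results of these data known. All 10 genes are named, then up to 4 genes per related list by the smallest p of the control slope and the 5 genes of most similar pattern. Gene positions are from GENCODE 29 on GRCh38, the assembly also called hg38, and promoter sequences from RefSeq on GRCh38.p14. All 10 symbols matched both. Some genes of the related and marker lists are not reported here.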

Additional observations from a re-analysis of the deposited data

How the results depend on the processing

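Leaving out each library in turn left 9 genes higher in the knockdown, 7 to 8 lower over the control chase, 6 to 10 lower over the knockdown chase (6 without replicate 2 of the knockdown at 7.5 h) and none with a different slope. Genes called higher in the knockdown then numbered 0 to 4 at 0 h, 2 to 5 at 1.5 h, 3 to 5 at 4.5 h and 2 to 6 at 7.5 h, with 0 to 1 lower at 7.5 h. Calls of a fall between neighbouring times numbered 0 to 2 for the control from 1.5 to 4.5 h and 0 to 1 for the knockdown from 4.5 to 7.5 h, and centred knockdown falls 1 to 4. At 0 h the count was 0 without replicate 1 of the knockdown and 1 without replicate 1 of the control or replicate 2 of the knockdown. Some effects that did not pass the test changed sign: the genotype effect of FOSB ran from -0.77 to 0.22, and the centred effects of ATF3 from -0.28 to 0.16, FOSL2 from -0.14 to 0.056, JUNB from -0.18 to 0.18 and JUND from -0.029 to 0.20. Slope differences ran from -0.21 to 0.052 for FOS, -0.014 to 0.024 for FOSL2, -0.047 to 0.15 for JUNB, -0.055 to 0.025 for JUND, -0.039 to 0.21 for ATF3 and -0.029 to 0.0083 for PPP1R15A.

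Centring every library, which removes the shift common to all genes, left 0 genes with a genotype effect over all times and 0 at each single time, 3 falling in the knockdown and 0 falling in the control between 1.5 and 4.5 h. It turned the genotype effects of FOSL2 (-0.048) and ATF3 (-0.049), that of PPP1R15A at 4.5 h (-0.036) and the slope difference of PPP1R15A (0.0051). A pseudocount of 0.2 turned the slope differences of FOSL2 (-0.041), JUNB (-0.022) and EGR1 (-0.011), and one of 0.02 that of PPP1R15A (5.2e-05). At 1.5 h 5 genes were higher with a pseudocount of 0.2, 5 with a CPM minimum of 5 and 5 without the variance trend. At 7.5 h 3 were higher with a pseudocount of 0.2 and 3 without a CPM minimum. Without a CPM minimum many genes listed at 0 enter the library medians. Centring then gave 0 genes falling in the control and 0 in the knockdown, genotype effects of -0.37 for FOS, -0.30 for JUN, -0.66 for JUNB, -0.61 for JUND, -0.22 for EGR1 and -0.54 for PPP1R15A, and control slopes of 0.022 for FOS, 0.036 for FOSB, 0.032 for JUND, 0.046 for ATF3 and 0.033 for PPP1R15A. The centred effect of JUNB was -0.059 with a pseudocount of 0.2. The fall of JUN between 1.5 and 4.5 h was not called without a CPM minimum (count 0). For the control slope of FOS the adjusted p was 0.0514 with a pseudocount of 0.02, 0.0812 without a CPM minimum and 0.0569 without the variance trend. The cause of these changes was not tested, and the unknown number of bases behind each rate limits all low rates.

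No pairing of the libraries by the replicate numbers of the labels was seen. Among genes at or above the median CPM, deviations of same-numbered libraries from their group means correlated between -0.0211 and 0.0492 over 28 pairs of groups. Such values cannot show whether same-numbered libraries came from the same culture. With the replicate number as a block the counts were 9 higher in the knockdown, 8 falling in the control and 9 in the knockdown, 3, 3, 5 and 5 higher at the 4 times, and 0 falling between 1.5 and 4.5 h in the control, where JUN had an adjusted p of 0.0544.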
